A study of Mus musculus with 7 samples.

Results

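Long noncoding RNAs that stay in the nucleus or come from imprinted loci were followed through laser-captured hippocampal CA2 tissue. The set was a fixed list of 10 gene symbols, Malat1, Neat1, Miat, Meg3, Mir770, Rian, Mirg, Kcnq1ot1, Snhg11 and Snhg14. It was drawn up by name, with earlier results of these data known. Of the 10 symbols, 8 had a row in the gene table of the 4 unsheared libraries. There Snhg14 was split into 4 numbered versions, giving 11 rows of 41567. In the gene table of the 3 sheared libraries 7 symbols had a row, of 22814 rows, and 6 symbols were in both tables. Mir770 was listed only in the sheared table, Meg3 and Snhg14 only in the unsheared table, and Mirg had no row under its own name in either.

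By the labels all material came from naive male Amigo2-GFP C57BL/6 mice of 6 weeks, a reporter strain whose fluorescence marks CA2 neurons and guides the laser, so the captured tissue also holds whatever glia, interneurons and processes lie in the CA2 layer. Unsheared libraries combined RNA extracted with the QIAGEN RNeasy Micro kit or with the PicoPure kit, which lyses longer and warmer, and a NuGEN Ovation or Clontech SMARTer library kit, with 1 library for each of the 4 combinations. The Clontech RNA was depleted of ribosomal RNA before cDNA synthesis, and the NuGEN libraries later, before their amplification. Per the paper's methods the comparison across kits used 20 PCR cycles. The kits also differed in read depth, which cannot be told apart from the kit. Sheared libraries were NuGEN libraries of QIAGEN RNA made with 16, 18 or 20 PCR cycles, 1 library at each, and the column names give another mouse at each number of cycles.

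Reads assigned to genes ran from 4548002 to 10417443 in the unsheared libraries and from 33239387 to 39256039 in the sheared ones. The defining markers of CA2 were present. Rgs14 was between 3465 and 4649 normalized counts and Amigo2 between 2237 and 3065 in the 4 unsheared libraries. All 4 carry the label CA2, whereas the study's methods also describe a capture in which PicoPure was used on CA1 and QIAGEN on CA2 of the same sections. Which mice gave each unsheared library is not stated in the labels, so spread between mice cannot be read from their p-values. No combination of library kit and RNA sample, and no number of PCR cycles, had a repeat library. Spread between like libraries was therefore not measured. The p-values of the main fits below rest on misfit to the fitted terms or line, pooled largely or wholly with that of other genes.

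As background, Malat1 and Neat1 lie next to each other in the genome and organise different kinds of nuclear body. Malat1 RNA gathers in nuclear speckles, where splicing factors are stored, and Neat1 RNA forms the scaffold of paraspeckles. Meg3, Rian and Mirg are read one after the other from the maternal chromosome of the Dlk1-Dio3 imprinted domain and carry many small RNAs, among them miRNAs and snoRNAs. Kcnq1ot1 is a long antisense RNA, read from the paternal chromosome, that silences its imprinted neighbours, and Snhg14 is the paternal host RNA of the snoRNA clusters of the Prader-Willi region, whose far end runs antisense to Ube3a in neurons. Miat is a nuclear RNA of neurons and Snhg11 is a brain-enriched snoRNA host gene.

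In GENCODE vM21 (GRCm38) Malat1 is a lincRNA at chr19:5795690-5802672 on the minus strand and Neat1 a lincRNA at chr19:5824708-5845478, also minus. Miat is a lincRNA at chr5:112213228-112229395, minus. Meg3 spans chr12:109541001-109571726, Rian chr12:109603940-109661716 and Mirg chr12:109729764-109749460, all on the plus strand. Kcnq1ot1 is annotated as antisense at chr7:143203458-143296549, minus. Snhg14 is a processed transcript at chr7:59307924-59975759, minus, and Snhg11, typed as protein coding in that annotation, lies at chr2:158375638-158386145, plus.

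Mir770 is a hairpin of 94 bases at chr12:109563692-109563785, inside Meg3 and on its strand. Libraries of this kind count long RNA, so a row of this name is read from transcript that crosses the hairpin, and whether it also counts other Meg3 sequence cannot be read from the table. Inside Mirg and on its strand lie Mir134, at chr12:109734139-109734209, and Mir369, at chr12:109743418-109743496. The sheared table held 12 rows of genes inside Mirg, and only these 2 had counts high enough to be tested. In the unsheared table Mir134 was the only such row. Mir134 and Mir369 were singled out after their values were seen. Their mature miRNAs are shown because they are what these host transcripts carry, with the seed, bases 2 to 8, in capitals (RefSeq, GRCm38.p6).
mmu-miR-770-5p: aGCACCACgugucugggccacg
mmu-miR-770-3p: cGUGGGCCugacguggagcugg
mmu-miR-134-5p: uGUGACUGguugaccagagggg
mmu-miR-134-3p: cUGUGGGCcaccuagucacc
mmu-miR-369-5p: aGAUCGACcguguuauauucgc
mmu-miR-369-3p: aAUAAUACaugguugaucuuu
No seed was shared between these 6 miRNAs.

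RefSeq gave start-site windows for 8 of the 10 symbols, 9 windows in all because Meg3 had a pair. The first of the Meg3 windows, chr12:109540746-109541045 on the plus strand of GRCm38.p6, is shown because Meg3 is the first transcript of the maternal series and carries a full cAMP response element, TGACGTCA, in capitals.
Meg3 window: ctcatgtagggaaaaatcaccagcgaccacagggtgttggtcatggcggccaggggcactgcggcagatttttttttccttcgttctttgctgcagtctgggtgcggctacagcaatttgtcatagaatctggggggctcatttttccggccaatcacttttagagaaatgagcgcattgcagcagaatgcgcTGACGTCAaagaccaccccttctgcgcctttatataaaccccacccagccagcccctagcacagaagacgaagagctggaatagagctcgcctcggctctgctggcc
Searched on both strands, that motif was in 1 of the 9 windows and in 1.79% of the 32851 windows of the same length in the RefSeq table. The match describes letters only.

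**Figure D1:**
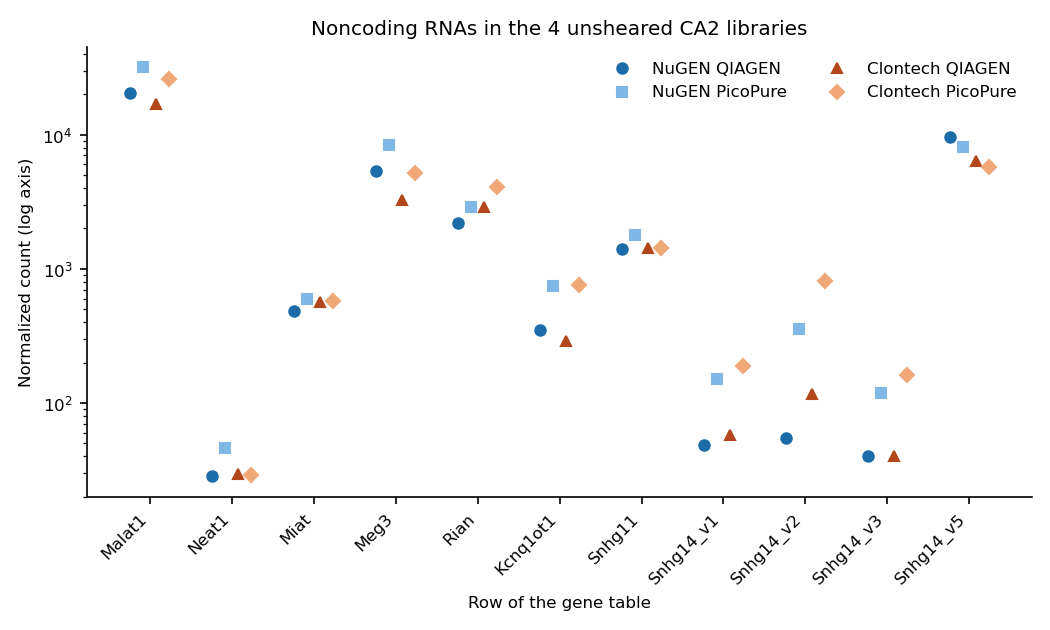
Normalized count (log axis) of each noncoding RNA row in the 4 unsheared libraries, 1 point a library. Malat1, Meg3, Rian, Kcnq1ot1 and Snhg14 versions 1 to 3 lie higher in the PicoPure library of each kit, while Snhg14_v5 lies lower.

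The first comparison asked how the RNA preparation moved these transcripts. Together the 11 rows took 0.528% (95% Wilson interval 0.522 to 0.535) of the reads in the NuGEN QIAGEN library and 0.752% (0.745 to 0.760) in NuGEN PicoPure. In the Clontech libraries the share was 0.489% (0.485 to 0.493) with QIAGEN RNA and 0.697% (0.692 to 0.702) with PicoPure RNA. These intervals cover counting error only. Malat1, Meg3, Rian, Kcnq1ot1 and Snhg14_v2 were higher in PicoPure libraries, 5 of 11 rows, and none was called lower. Of all 13048 genes tested 1.45% were called higher and 0.314% lower at an adjusted p under 0.05 (limma, log2 of the normalized count + 1, library kit as a term). The median difference over the 11 rows was 0.63 on that log2 scale, against -0.02 over all genes. More RNA of a kind per cell and more cells that hold it cannot be told apart in bulk tissue. The RNA samples also differed in quality. The paper reports lower RNA integrity with PicoPure, and a smaller share of intronic reads in libraries of the better RNA. The part of RNA integrity in the differences of these rows was not tested.

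Malat1, the speckle RNA, counted 20404 in NuGEN QIAGEN, 31704 in NuGEN PicoPure, 16936 in Clontech QIAGEN and 26135 in Clontech PicoPure. Both PicoPure libraries lay above both QIAGEN libraries. The difference was 0.64 on the log2 scale within NuGEN and 0.63 within Clontech, nearly the same size in each kit, and the fit over both gave 0.63 (SE 0.0840, limma adjusted p = 3.18e-06).

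Neat1, the paraspeckle RNA, was near the lower end of what these libraries could measure. It counted 28.3 in NuGEN QIAGEN, 46.3 in NuGEN PicoPure, 29.6 in Clontech QIAGEN and 29.2 in Clontech PicoPure, from 17, 33, 46 and 47 reads. Its difference was 0.34 (SE 0.818, limma adjusted p = 0.929), so that a change of the size seen for Malat1 was not detectable at this depth. Miat counted 486, 598, 565 and 573 in the same order of libraries. The NuGEN QIAGEN library was lowest and the others lay close together, and the difference of 0.16 did not pass (SE 0.206, limma adjusted p = 0.836).

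Meg3, which opens the maternal series, counted 5362 with QIAGEN RNA and 8380 with PicoPure RNA in NuGEN. Its Clontech counts were 3280 with QIAGEN RNA and 5193 with PicoPure RNA. The gain was again alike in the kits, 0.64 and 0.66, and both NuGEN libraries lay above both Clontech libraries. The fit gave 0.65 (SE 0.106, limma adjusted p = 9.85e-05). Rian, the snoRNA host downstream, counted 2186 in NuGEN QIAGEN, 2909 in NuGEN PicoPure, 2892 in Clontech QIAGEN and 4076 in Clontech PicoPure. Its gain of 0.45 was the smallest of the 5 that passed (SE 0.121, limma adjusted p = 0.0378). Mir134, which stands inside Mirg and is not one of the 11 rows, counted 220 and 449 in the NuGEN pair and 138 and 526 in the Clontech pair. Its difference was 1.47 (SE 0.282, limma adjusted p = 9.72e-04). As a row picked after its values were seen, it is no measure of Mirg itself.

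Kcnq1ot1, the antisense RNA of the Kcnq1 domain, counted 351 and 744 in NuGEN with QIAGEN and PicoPure RNA, and 290 and 755 in Clontech. Both PicoPure libraries were at about the same level and so were both QIAGEN libraries, 2.12-fold apart in NuGEN and 2.60-fold apart in Clontech. The fit gave 1.23 (SE 0.217, limma adjusted p = 3.10e-04). Snhg11, by comparison, counted 1416 and 1775 in NuGEN and 1428 and 1430 in Clontech. Its fitted difference of 0.16 did not pass (SE 0.147, limma adjusted p = 0.733).

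The 4 rows of Snhg14 went apart. Snhg14_v2 counted 55.0 in NuGEN QIAGEN, 357 in NuGEN PicoPure, 116 in Clontech QIAGEN and 818 in Clontech PicoPure, from 33, 254, 181 and 1318 reads. It was 6.49-fold higher with PicoPure in NuGEN and 7.03-fold higher in Clontech, and the fitted difference of 2.74 was the largest of the 11 rows (SE 0.323, limma adjusted p = 2.54e-07). Snhg14_v1 counted 48.3 and 152 in the NuGEN pair and 57.2 and 189 in the Clontech pair, a difference of 1.67 that did not pass (SE 0.492, limma adjusted p = 0.0767). Snhg14_v3 counted 40.0 and 118 in NuGEN and 40.5 and 161 in Clontech, with a difference of 1.75 that did not pass either (SE 0.558, limma adjusted p = 0.118). In both versions the PicoPure library was the higher of each pair. The share of all genes for which this held was not counted. Snhg14_v5 had far more reads and ran the other way, with 9664 and 8082 in NuGEN and 6352 and 5708 in Clontech. Its difference of -0.21 did not pass (SE 0.100, limma adjusted p = 0.389). RefSeq places the coding genes Snurf and Snrpn within the Snhg14 span on the same strand. Neither had a row of its own in the unsheared table, so Snhg14_v5 cannot be told apart from them.

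**Figure D2:**
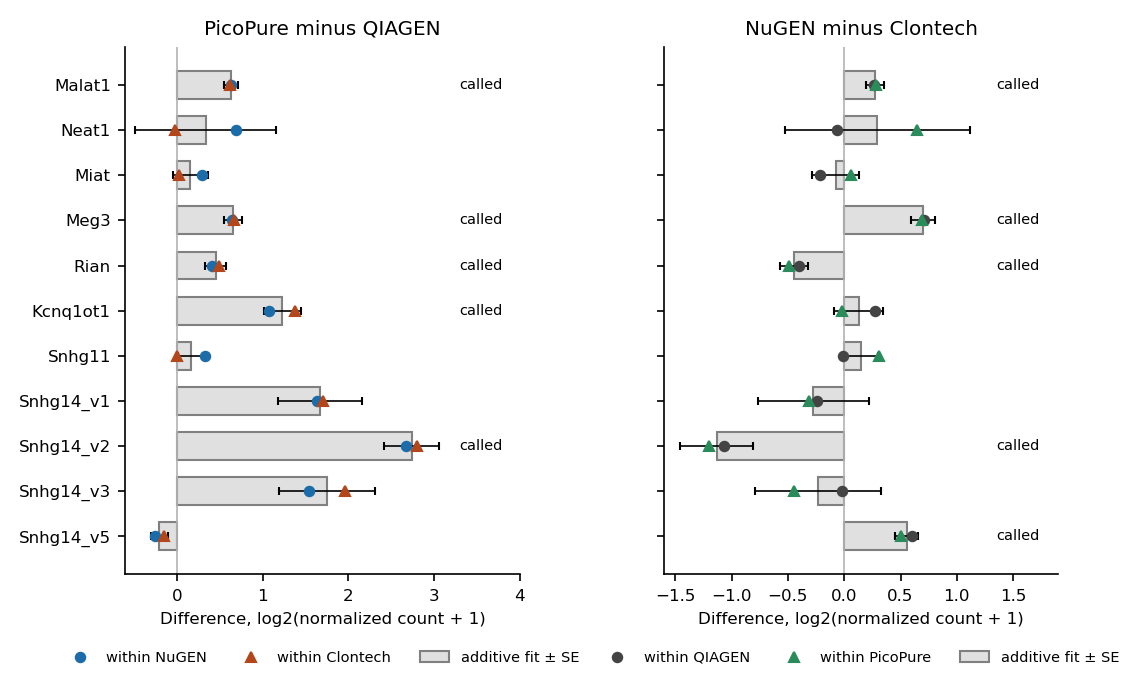
Left, PicoPure minus QIAGEN, and right, NuGEN minus Clontech, for each row, on the log2(normalized count + 1) scale; bars are the additive fit with its SE, points the difference within each pair of libraries, and "called" marks an adjusted p under 0.05. The points of Malat1, Meg3, Rian and Snhg14_v2 nearly coincide in both panels, whereas those of Neat1 lie on either side of 0 in both.

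The 5 calls rested on fitting RNA sample and library kit together. With the kit term left out 0 of 11 rows passed (4 at an unadjusted p under 0.05), and so did 0 without any of the 4 libraries in turn (1 to 4 unadjusted). The fits without a library also dropped the kit term, since no degree of freedom remained. Counted over listed exons instead of genes, 2 rows passed, Malat1 and Snhg14_v2. No row passed when each gene was represented by its highest exon piece (6 unadjusted).

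Cell type markers moved in the same comparison, in which 1.45% of all tested genes were called higher and 0.314% lower. All 10 oligodendrocyte markers were lower with PicoPure, 2 of them called, and their summed level fell from 7053 to 4340 normalized counts in NuGEN and from 4588 to 3114 in Clontech. Of 7 CA1 markers tested 6 were higher with PicoPure, 1 of them called, with sums of 963 and 1410 in NuGEN and 646 and 1211 in Clontech. Only Dcn of that list was at 0, in 3 of the libraries. The CA2 sum went from 16694 to 15255 in NuGEN and from 14583 to 13865 in Clontech, and 6 of 11 CA2 markers were higher, with a median of 0.07. The only one called was Vcan, higher with PicoPure by 0.88 (limma adjusted p = 0.0189). The part of cell makeup in the differences of the noncoding RNAs was not tested.

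Genes that work with these RNAs were counted from lists, beside 1.45% called higher and 0.314% lower over all tested genes. Of 19 tested nuclear speckle proteins, the partners of Malat1, 3 were higher with PicoPure and none lower, with a list median of 0.32. They were Pnisr (1.20), Clk1, a kinase of splicing factors (1.13), and Son, a core speckle protein (0.48). Of 14 paraspeckle proteins none passed, with a median of 0.01. Of 20 other noncoding RNAs 2 were higher, Rmrp (0.67) and Rpph1 (0.66), the RNA parts of the RNases MRP and P, with a median of 0.31. The 8 tested coding neighbours of the imprinted genes, which share their domains, had a median of -0.38 with none called. The 7 genes around Malat1 and Neat1 had a median of -0.01 and none called either.

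The exon table splits each gene into numbered pieces and holds 144 pieces of the 11 rows, of 437023. Of the 102 pieces that averaged at least 10 normalized counts, 68 were higher with PicoPure in both kits and 9 were lower in both. Over all 124074 such pieces the shares were 24.0% and 25.9%. No single piece passed limma over 131222 pieces for this comparison (7600 at an unadjusted p under 0.05, 38 of them among the noncoding rows). All 8 pieces of Meg3, all 16 of Snhg14_v2 and all 7 of Snhg14_v3 were higher in both kits. For Snhg14_v5 9 pieces were higher and 8 lower of 27, and for Snhg11 3 were higher and 1 lower of 12. A read can count in more than one piece, so pieces of a gene are not replicates.

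Rian was not raised evenly along its length. Exons 1 to 20 together had 169 normalized exon counts in NuGEN QIAGEN, 880 in NuGEN PicoPure, 402 in Clontech QIAGEN and 1296 in Clontech PicoPure, so that they were 5.22-fold and 3.22-fold higher with PicoPure. Exons 21 to 30 had 2612, 2511, 2890 and 3699, a ratio of 0.962 in NuGEN and 1.28 in Clontech. As a share of Rian's exon counts, exons 1 to 20 took 6.07% (95% Wilson interval 5.06 to 7.26) and 12.2% (11.4 to 13.1) in the QIAGEN libraries of NuGEN and Clontech. They took 25.9% in both PicoPure libraries, with intervals of 24.3 to 27.7 and 25.0 to 26.9. The border at exon 21 was set after the values were seen, so these figures are a description.

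Meg3 rose more evenly. Its exons 1 to 8 had 2630 and 5082 normalized exon counts in the NuGEN pair and 1456 and 2321 in the Clontech pair. Its last exon, the ninth, had 3407 and 5218 in NuGEN and 2293 and 4015 in Clontech.

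**Figure D3:**
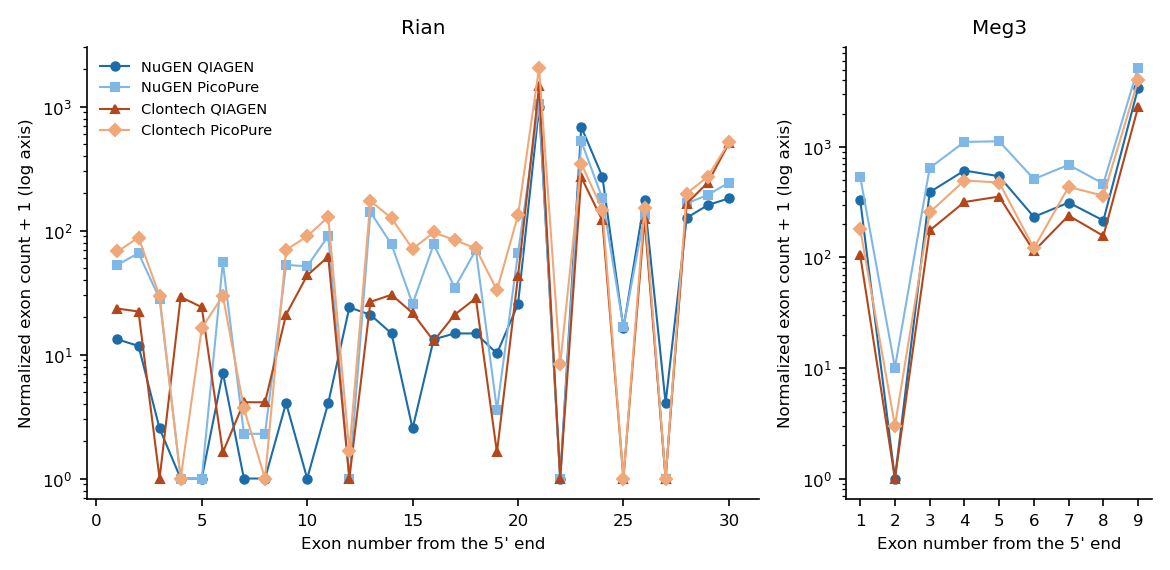
Normalized exon count + 1 (log axis) by exon number from the 5′ end for Rian and Meg3, pieces of an exon summed, 1 line a library. Over Rian exons 1 to 20 most points of the PicoPure lines lie above the QIAGEN lines, the lines draw together from exon 21 on, and in Meg3 the PicoPure line of each kit lies above its QIAGEN line along the whole transcript.

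The second comparison asked how the library kits read the same transcripts. Malat1, Meg3 and Snhg14_v5 were higher in NuGEN and Rian and Snhg14_v2 were lower, 3 and 2 of 11 rows. Over all 13048 genes 10.8% were called higher and 10.5% lower, and the median of the 11 rows was 0.13 against -0.03 for all genes. Meg3 was 0.71 higher in NuGEN with QIAGEN RNA and 0.69 higher with PicoPure RNA, and its fit gave 0.70 (SE 0.106, limma adjusted p = 3.13e-06). Snhg14_v5 was 0.61 and 0.50 higher, fitted at 0.55 (limma adjusted p = 5.72e-05). Rian ran the other way at -0.40 and -0.49, fitted at -0.45 (SE 0.121, limma adjusted p = 0.00594).

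Malat1 was 0.27 higher in NuGEN with QIAGEN RNA and 0.28 higher with PicoPure RNA (fit 0.27, SE 0.0840, limma adjusted p = 0.0154). Snhg14_v2 was lower by -1.07 and -1.20 (fit -1.13, SE 0.323, limma adjusted p = 0.00887). The other 6 rows did not pass, with fits from -0.28 for Snhg14_v1 to 0.29 for Neat1. Counted over listed exons, 4 rows passed, without Rian at -0.25 (limma adjusted p = 0.244). By the highest exon piece 4 passed, without Malat1 at 0.12 (limma adjusted p = 0.528). The only piece of Malat1 held the same reads as its gene row, and exon counts were scaled apart from gene counts. With the RNA term left out, or without any of the libraries in turn, 0 of 11 rows passed (1 to 2 at an unadjusted p under 0.05). Fits without a library also dropped the RNA term, so their kit difference took in part of the RNA difference. In them Malat1 read -0.04 without either NuGEN PicoPure or Clontech QIAGEN. Snhg14_v2 read 0.21 without NuGEN QIAGEN and 0.27 without Clontech PicoPure. Within each RNA sample both rows kept the sign of the full fit, as given above.

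By exon pieces, where limma called 13.3% of all tested pieces higher and 8.95% lower in NuGEN, 17 pieces of the noncoding rows were higher and 11 lower. Of the 8 Meg3 pieces 5 were higher and none lower. Rian had 2 higher and 3 lower, which included exon 21, the richest, at 995 and 1056 in NuGEN and 1467 and 2064 in Clontech with QIAGEN and PicoPure RNA.

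Snhg14_v5 carried calls in both directions, 8 pieces higher and 6 lower, and they were grouped along the transcript. Exons 3 to 6 summed to 26396 and 19626 in NuGEN QIAGEN and NuGEN PicoPure, against 4396 and 4804 in the Clontech pair. A read can count in several pieces, and the kits differed in this. Exon counts of the whole row were 3.69 and 3.43 per gene read in NuGEN, and 2.17 and 2.12 in Clontech. Over all genes they were 1.91 and 1.79 in NuGEN, and 1.64 and 1.48 in Clontech. Those of this block alone were 2.97 and 2.63 per gene read of the row in NuGEN, and 0.712 and 0.782 in Clontech. The block values also depend on where along the row the reads lie. The gene row differed less between kits, at 9664 and 8082 in NuGEN and 6352 and 5708 in Clontech. Exons 7 to 9 summed to 2286 and 1888 in NuGEN and to 5553 and 4678 in Clontech. Exons 13 to 24, further downstream, summed to 376 and 649 in NuGEN and to 979 and 1256 in Clontech. These last exons were 1.73-fold and 1.28-fold higher with PicoPure, unlike the row as a whole. The borders of these blocks were also set after the values were seen.

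**Figure D4:**
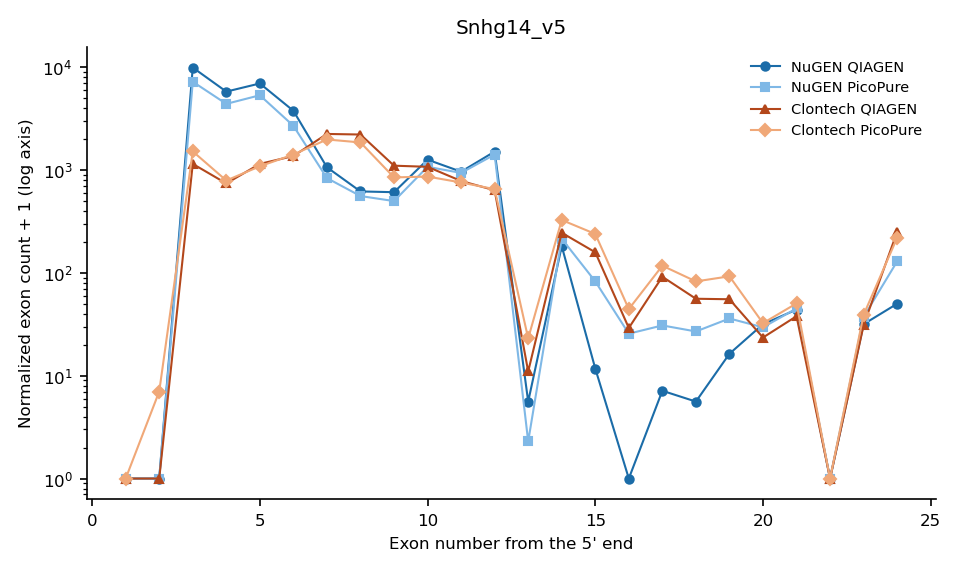
Normalized exon count + 1 (log axis) by exon number from the 5′ end for Snhg14_v5, pieces of an exon summed, 1 line a library. The NuGEN lines lie above the Clontech lines over exons 3 to 6 and below them over exons 7 to 9, and counts drop for all 4 libraries after exon 12. A read can count in several pieces.

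The partner lists were counted between kits too, where 10.8% of all tested genes were called higher in NuGEN and 10.5% lower. Of 14 paraspeckle proteins 6 were higher in NuGEN and 4 lower, with Matr3 at -1.27, Hnrnpk at -0.44 and Ewsr1 at 0.60. Of 19 nuclear speckle proteins 6 were higher and 3 lower, with Son at -1.01, Sf3b1 at -0.81, Srsf5 at 0.78 and Rbm25 at 0.92. Of 20 other noncoding RNAs 5 were higher and none lower. The short RNAs Rpph1 (4.42) and Rmrp (5.88) led them, with 2900097C17Rik at 1.77 and Gas5 at 1.56. Of the coding neighbours of the imprinted genes, Cd81 (1.28) and Ndn (0.78) were higher.

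The sheared libraries asked whether further PCR cycles moved the counts. Malat1 counted 49547 at 16 cycles, 64683 at 18 and 61586 at 20. It was lowest at 16 cycles and did not rise from 18 to 20. The straight-line slope was 0.08 per cycle on the log2 scale (SE 0.0129, limma adjusted p = 3.78e-06). Each SE of a slope here came from genes of like abundance, not from the gene's own misfit to the line. The Malat1 slope turned to -0.04 without the library at 16 cycles. DESeq2 did not call it. Mir770 counted 11797, 15162 and 18326, a steady climb of 0.16 per cycle (SE 0.0219, limma adjusted p = 3.12e-09). These were 2 of 7 rows called higher and none lower, against 0.044% higher and 0.0733% lower of the 13639 genes tested. Each cycle number came with another mouse, and their effects cannot be told apart.

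Rian, in the same imprinted domain as Mir770, counted 10088, 9782 and 9685, the most even of the 7 rows with a coefficient of variation of 2.14%. Its slope was -0.01 (limma adjusted p = 1.00). Snhg11 counted 6740, 7458 and 8869 and Miat 1424, 1491 and 1767, each highest at 20 cycles. Their slopes were 0.10 and 0.08 (limma adjusted p = 0.181 and 1.00). Kcnq1ot1 counted 544, 1141 and 1109, low only in the library at 16 cycles (slope 0.26, limma adjusted p = 0.131). Neat1 counted 60.7, 46.4 and 162, the widest spread with a coefficient of variation of 70.1% (slope 0.35, limma adjusted p = 1.00). Mir369, inside Mirg, counted 151, 147 and 224, and Mir134 only 10.6, 9.28 and 22.6.

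Ttr, a choroid plexus marker, counted 12.8 at 16 cycles, 2796 at 18 and 93.0 at 20. The sum of all 6 choroid plexus markers was 523, 3379 and 591, and without Ttr it was 510, 583 and 498, with 4, 1 and 4 of the 6 at 0. The CA1 sum was 6661 at 16 cycles and 3890 and 3889 at 18 and 20. Of 7 CA1 markers tested none had a positive slope and 1 was called lower, against 0.0733% of all tested genes. Their part in the noncoding RNA values was not tested. No tested gene of the partner and neighbour lists was called over the cycles.

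**Figure D5:**
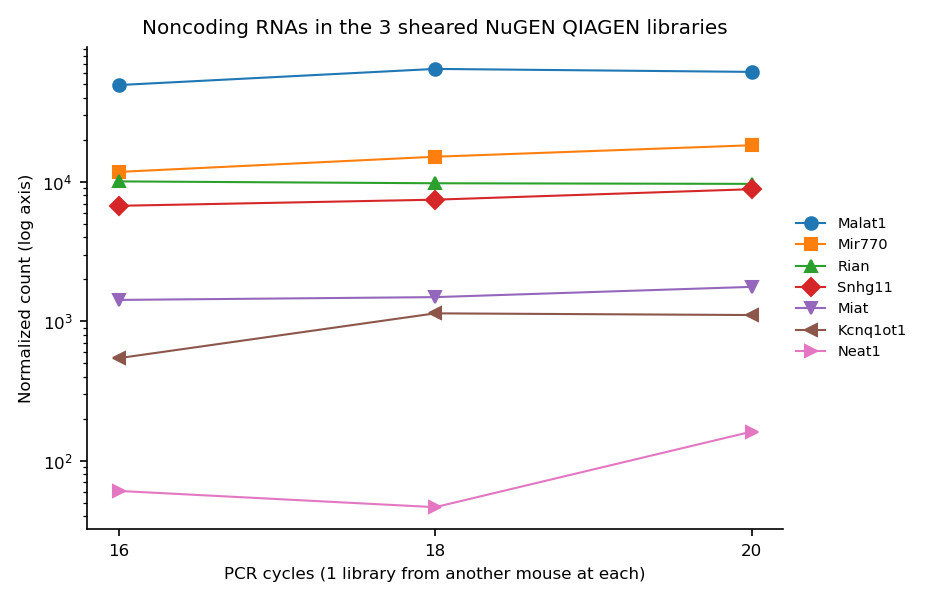
Normalized count (log axis) of the 7 noncoding RNA rows against PCR cycles in the sheared libraries, 1 library a point. Mir770 climbs from 11797 to 18326 and Rian stays between 9685 and 10088, while Neat1 drops and then rises.

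Because the tables were normalized apart and rest on different gene models, sheared and unsheared libraries are set side by side only as reads per 1e6 assigned reads, with no test. Malat1 had 2693 in the unsheared NuGEN QIAGEN library and 1403, 1832 and 1742 in the sheared ones at 16, 18 and 20 cycles. Rian had 288 unsheared and 286, 277 and 274 sheared. Snhg11 had 187 and then 191, 211 and 251, and Kcnq1ot1 had 46.4 and then 15.4, 32.3 and 31.4. Miat had 64.2 and then 40.3, 42.2 and 50.0. Neat1 had 3.74 and then 1.72, 1.31 and 4.57. Malat1, Kcnq1ot1 and Miat lay below the unsheared library in every sheared one, Neat1 in the first and second of them, and Rian differed little. Mir134 dropped from 29.0 to between 0.263 and 0.638, a row whose unsheared count spans 19 numbered exons and is thus not the hairpin alone.

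Across all 7 libraries the log2 profile most like that of Malat1, centred within each table, belonged to Slc25a28, a mitochondrial iron carrier, at a Euclidean distance of 0.13. Rbms3 (0.22) and Cblb (0.23) followed, with a median distance of 1.08 over 7239 genes. For Meg3, over the 4 unsheared libraries alone, the nearest were Sgsm2 (0.11), Wwox (0.13) and Rbm6 (0.13), with a median of 1.22 over 7601 genes.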

How the data were processed

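Libraries were paired-end RNA-Seq of laser-captured CA2. Per the paper's methods, the authors trimmed reads, aligned them to mm10 with STAR (2.4.1d), counted genes and exons with featureCounts and scaled each library with DESeq2. What was deposited is thus a signal, the normalized count. Its steps gave back whole reads for all values, within 0.01 read.

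Values were analysed as log2(normalized count + 1) with limma (3.58.1, trend) in R (4.3.3), over genes that reached 10 in 2 or more libraries, ribosomal and mitochondrial genes left out. Library kit and RNA sample were additive terms over the 4 unsheared libraries (1 residual degree of freedom, prior 36.2). Cycles were a straight line over the 3 sheared ones (1 residual degree of freedom, infinite prior). An infinite prior replaces each gene's own spread by that of genes of like abundance. Benjamini-Hochberg values ran over all genes, called under 0.05. Alternatives were edgeR (4.0.16), DESeq2 (1.42.0), other scalings, pseudocounts, filters and exon counts, and each library left out. The main limma fits and the exon-piece fit between RNA samples were also run on simulated data, and the alternatives were not.

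Named were all listed genes, the up to 4 most abundant called genes of each list, genes inside a listed gene, and the 3 nearest profiles of Malat1 and Meg3. One gene that this rule names is not reported here. The genes and lists were chosen with earlier results of these data known. Exon blocks, within-pair differences and the rows inside Mirg were added after seeing the data. Names of 26 sheared rows had become dates and were left out. Mature miRNAs and start-site windows come from RefSeq, positions of genes from GENCODE vM21.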

Additional observations from a re-analysis of the deposited data

Results flagged for a closer look

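Differences whose sign was opposite in the 2 pairs of libraries that share a contrast are listed here, on the log2 scale; whether the pairs differ was not tested. Neat1 was 0.69 higher with PicoPure in NuGEN and -0.02 in Clontech, and between kits it was -0.060 with QIAGEN RNA and 0.65 with PicoPure RNA. NuGEN minus Clontech for Kcnq1ot1 was 0.28 with QIAGEN RNA and -0.02 with PicoPure RNA. For Miat it was -0.22 and 0.06, for Snhg11 -0.012 and 0.31, and for Mir134, the row inside Mirg, 0.67 and -0.23. None of these differences between kits or RNA samples passed in the fit over both pairs.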

How the results depend on the processing

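Under edgeR, DESeq2, TMM scaling, pseudocounts of 10 and 0.5 and with ribosomal and mitochondrial genes included, 5 of 11 rows stayed called between RNA samples and 5 between kits; without the filter the RNA samples gave 6, with Snhg14_v1 added. Between RNA samples 2 rows passed with counts summed over exon pieces, 0 with the highest piece and 0 with the kit term left out, and among all genes 7, 1 and 0 in place of 230 (1329, 729 and 238 at an unadjusted p under 0.05). Leaving out each library gave 0 to 0 rows and 0 to 0 genes, with the other term left out since no degree of freedom remained. Between kits 0 rows and 1145 of 2784 genes passed with the RNA term left out, and 0 to 0 rows and 1 to 58 genes without a library. Summed exon pieces called 1971 genes higher and 480 lower in NuGEN, against 1414 and 1370. Without a library the Malat1 kit difference ran from -0.044 to 0.59 and that of Snhg14_v2 from -2.53 to 0.27. DESeq2 called 1 of 7 rows and 6 of all genes over the cycles, in place of 2 and 16. Without a sheared library the Malat1 slope ran from -0.035 to 0.19, as a value with no test. The cause of these changes was not tested. In the unsheared fits without a library, loss of the other term cannot be told apart from loss of the library. No paired analysis was possible because the labels give no replicate numbers, although fitting kit and RNA sample together compares libraries within each. Depth limits Neat1 most, at 17 to 47 reads in the unsheared libraries.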
